A study of Drosophila melanogaster with 3 samples.

Results

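The 8 Hox genes of Drosophila melanogaster, lab, pb, Dfd, Scr, Antp, Ubx, abd-A and Abd-B, were examined for binding of the CG11695 protein, 8 of 13945 annotated protein-coding genes. The members were chosen by name, and each was given a window from 5 kb before to 5 kb past its annotated ends. All peaks with a summit in these windows were taken from every list that applies a threshold and from each replicate's full ranked list. The windows covered 418 kb of chromosome arm 3R.

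The peaks came from chromatin immunoprecipitation followed by sequencing (ChIP-seq), which maps where a protein sits on DNA. The embryos were whole animals collected 0 to 24 hours after laying, from a transgenic strain with an insertion that expresses CG11695, a zinc finger protein, fused to the green fluorescent protein eGFP, and the antibody was raised against GFP. There was 1 group of 3 biological replicates, and no input or other control library was analysed here, so each value is set beside the same value over all genes and not beside another condition. In whole embryos a site occupied strongly in few cells and a site occupied weakly in many cannot be told apart.

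Hox genes encode homeodomain transcription factors that give the segments of the body their identity along the head-to-tail axis. In Drosophila they lie in a pair of clusters on one chromosome arm. The Antennapedia complex holds lab, pb, Dfd, Scr and Antp for the head and front thorax, and the Bithorax complex holds Ubx, abd-A and Abd-B for the hind thorax and abdomen. Their order along the chromosome follows the order of the segments they pattern. Long introns and intergenic regions carry the enhancers, boundary elements and Polycomb response elements that hold each gene on or off in the right segments.

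CG11695 peaks lay in the windows of most Hox genes, and more of the sites were in introns than at start sites. In the authors' conservative list, a summit lay in the window of 6 of the 8 genes, lab, Dfd, Scr, Antp, Ubx and Abd-B, and in that of neither pb nor abd-A. Over all protein-coding genes the share with a summit in the same window was 45.7%. Longer genes are hit more often, and among protein-coding genes of 20 kb or longer the share was 66.8%, beside 4 of the 6 Hox genes of that length, Scr, Antp, Ubx and Abd-B. The count for the Hox genes of that length was thus near the background. In the pooled list the same 6 genes had a summit, where the share over all protein-coding genes was 51.7%.

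A summit within 500 bp of an annotated transcription start site was present at 3 of the 8, Dfd, Scr and Antp, against 16.2% of all protein-coding genes. The count was 0 in the list that compares replicates 1 and 2, which leaves replicate 3 out of the comparison and is of nearly equal length with 4763 records. The share of all protein-coding genes in that list is not given here. A Hox site had the same summit and signal in every series-level list that held it, so these lists differ in which peaks pass. None of these 3 promoter peaks stood in any replicate's own thresholded list. Their signals were among the weaker ones of the conservative list, at 85.3, 68.3 and 69.0 on the authors' scale, against a median of 120 over its 4770 peak records.

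Counting every thresholded list of the whole series, summits at most 250 bp from the next along the chromosome were joined. This gave 20 distinct Hox sites, 13 of them in the conservative list. Antp held 6 sites, Ubx 5, Abd-B 3, lab and Scr 2 each, pb and Dfd 1 each, and abd-A none. Of the 20 sites, 16 lay within their Hox gene, 1 upstream and 3 past the 3′ end. By annotation 13 were intronic, 6 were within 500 bp of a start site of some gene and 1 was intergenic. No site lay in an annotated mobile element. Distances below are counted along the direction of transcription from the gene's nearest annotated start site, with negative values upstream.

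**Figure D1:**
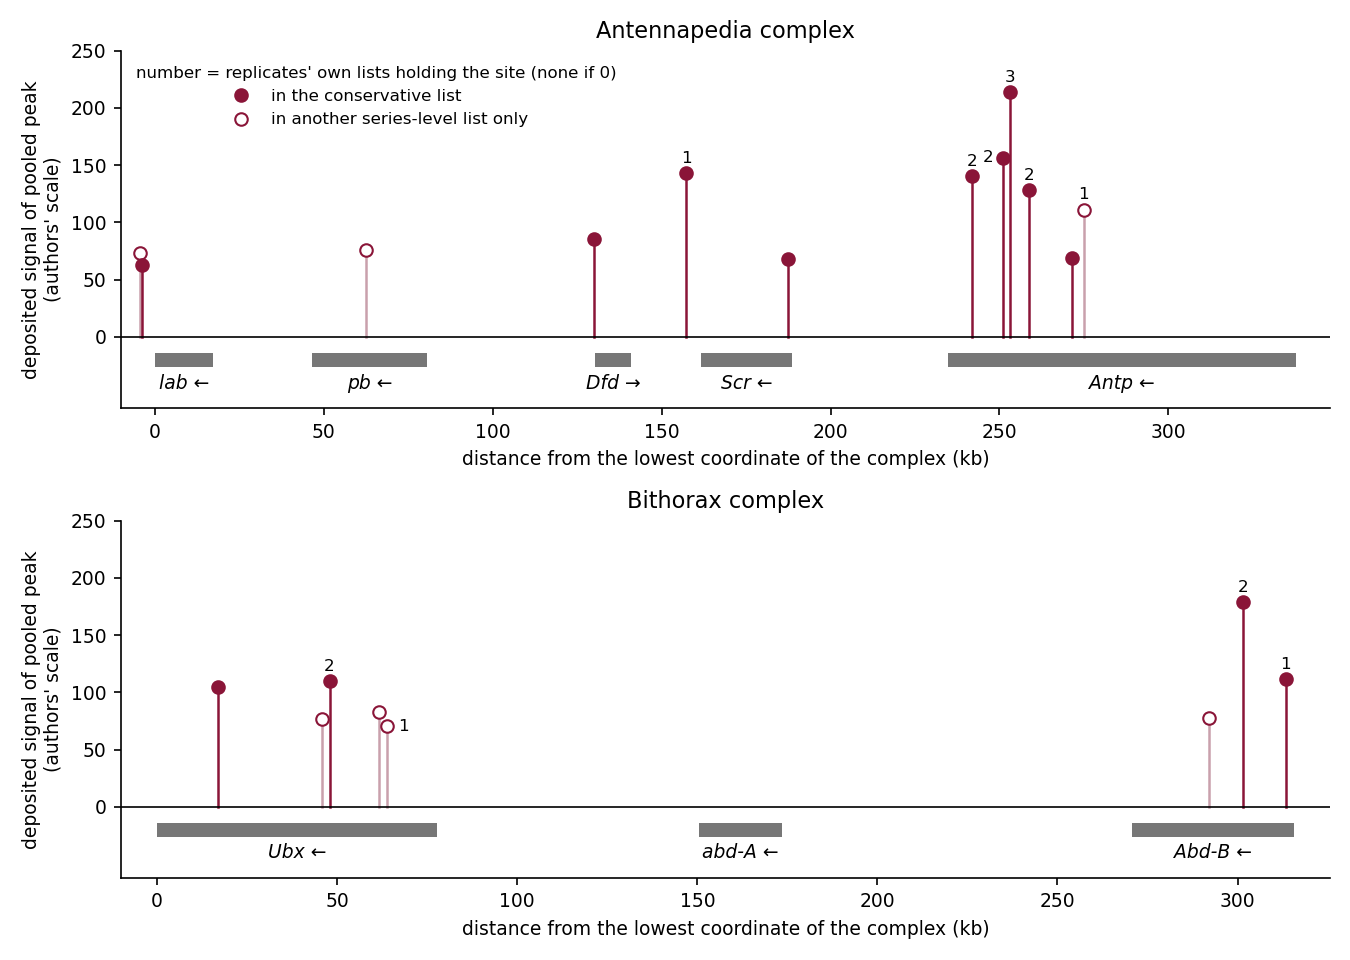
Deposited signal of the 20 merged Hox sites (vertical axis, authors' scale) along the Antennapedia and Bithorax complexes (horizontal axis, kb from the lowest coordinate of each complex); grey bars are the genes with their direction, filled points are sites of the conservative list, open points sites of other series-level lists, and a number gives how many of the 3 replicates' own thresholded lists held the site. The tallest point is at Antp, the only site with a 3, and no point lies over abd-A.

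The DNA at 8 of these sites, 201 bp centred on each summit, was read from the plus strand of the dm6 genome (RefSeq). The 8 were taken because they carry the results: the strongest site of the Antennapedia complex, that of the Bithorax complex, the intergenic site past Scr, the promoter sites of Dfd and Scr, an Abd-B intron site with 3 GAGAG, and a neighbouring pair of sites in the Ubx intron. Capitals mark matches on either strand to the 7 short motifs searched: TAATTA, which holds a core that homeodomains bind, TAATGA, which holds it too, GAGAG, bound by the product of Trl, GCCAT, the core bound by the Polycomb recruiter Pho, TATAAA, the letters of a core promoter element, TATCGATA, the DNA replication-related element, and AAATAT, an AT-rich word. Matches of different motifs may share bases.
Antp intron, 18.3 kb downstream of a start site, chr3R:6914475-6914675: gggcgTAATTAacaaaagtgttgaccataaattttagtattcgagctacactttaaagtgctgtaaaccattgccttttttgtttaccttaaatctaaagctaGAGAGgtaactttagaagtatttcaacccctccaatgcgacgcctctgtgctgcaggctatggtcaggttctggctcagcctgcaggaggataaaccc
Abd-B intron, 2.02 kb downstream of a start site, chr3R:16958160-16958360: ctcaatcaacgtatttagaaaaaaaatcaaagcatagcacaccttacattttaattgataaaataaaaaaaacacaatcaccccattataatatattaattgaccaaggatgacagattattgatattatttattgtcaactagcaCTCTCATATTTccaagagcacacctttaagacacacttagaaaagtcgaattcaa
Scr, intergenic past the 3′ end, chr3R:6818618-6818818: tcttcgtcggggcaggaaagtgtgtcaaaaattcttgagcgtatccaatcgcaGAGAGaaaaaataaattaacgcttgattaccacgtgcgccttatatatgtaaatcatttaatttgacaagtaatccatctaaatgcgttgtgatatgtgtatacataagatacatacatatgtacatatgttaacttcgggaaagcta
Dfd promoter, chr3R:6791346-6791546: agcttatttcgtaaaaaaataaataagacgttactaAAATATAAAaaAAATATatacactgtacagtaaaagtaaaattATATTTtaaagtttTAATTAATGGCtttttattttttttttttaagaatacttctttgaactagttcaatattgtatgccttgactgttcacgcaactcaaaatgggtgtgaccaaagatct
Scr promoter, chr3R:6848612-6848812: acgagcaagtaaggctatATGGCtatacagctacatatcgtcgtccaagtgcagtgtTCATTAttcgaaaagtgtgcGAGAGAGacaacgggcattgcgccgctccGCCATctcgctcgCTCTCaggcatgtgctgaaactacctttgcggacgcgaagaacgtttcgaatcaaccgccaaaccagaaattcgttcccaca
Abd-B intron, -4.56 kb from a start site, chr3R:16948730-16948930: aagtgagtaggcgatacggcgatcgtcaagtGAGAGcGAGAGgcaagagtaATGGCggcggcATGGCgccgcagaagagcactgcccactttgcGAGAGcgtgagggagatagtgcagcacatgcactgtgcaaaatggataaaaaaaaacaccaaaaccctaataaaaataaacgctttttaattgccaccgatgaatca
Ubx intron, 31.9 kb downstream of the start site, chr3R:16702407-16702607: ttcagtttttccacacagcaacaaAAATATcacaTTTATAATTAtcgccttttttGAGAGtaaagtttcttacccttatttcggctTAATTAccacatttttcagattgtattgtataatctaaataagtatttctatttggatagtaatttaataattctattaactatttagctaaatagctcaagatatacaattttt
Ubx intron, 29.9 kb downstream of the start site, chr3R:16704384-16704584: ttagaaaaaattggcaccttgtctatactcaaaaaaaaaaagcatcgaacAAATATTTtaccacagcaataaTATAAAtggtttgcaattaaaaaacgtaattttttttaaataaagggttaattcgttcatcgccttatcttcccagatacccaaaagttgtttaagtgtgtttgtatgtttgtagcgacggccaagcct

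Antp, which specifies the second thoracic segment and keeps antennae from forming there, had the strongest peak and, in the longest window, the largest count of records in the conservative list. The gene spans 103 kb on the minus strand (3R, 6896253 to 6999228), has 3 separate start sites, and held 6 of the 15 Hox records of the conservative list. Per 100 kb of window this was 5.31, beside 5.45 at Abd-B and 5.43 at Scr, and in the pooled list Antp and Ubx had 5 records each. Its leading peak (3R, 6914500 to 6914642, summit 6914575) lay in an intron 18.3 kb downstream of the start site at 6932840. There the signal was 64.3 in replicate 1, 77.5 in replicate 2 and 66.0 in replicate 3, at ranks 1621, 879 and 954 in their ranked lists, and all 3 replicates' own thresholded lists held it. In the conservative list its signal of 214 stood at rank 1019 of 4770, so that no Hox peak was among the strongest 1000. It was the only Hox site found in every thresholded list, and its replicate signals averaged 69.2 ± 7.22 (SD, n = 3).

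The other Antp intron sites were weaker and less regular. The site 20.3 kb downstream (summit 6912550, signal 157) and the site 29.4 kb downstream (summit 6903414, signal 141) were in the own thresholded lists of replicates 1 and 3 but not 2. The site 12.6 kb downstream (summit 6920273, signal 128) was in those of replicates 1 and 2 but not 3. All of these stood in all 4 series-level lists, and their ranks in the replicates ran from 1049 to 3179. Except for the site 12.6 kb downstream, each was closer to the start of lncRNA:CR43252, a non-coding RNA gene nested in the region, than to a start of Antp. All Antp sites also lay within CG46458, a protein-coding gene annotated across the same DNA, so the records count for both.

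At the Antp start site used by the shorter transcripts, the promoter peak (within 500 bp upstream, signal 69.0) had nearly equal signals in the replicates, at 25.6, 24.7 and 28.6, or 26.3 ± 2.04 (SD, n = 3). None of the 3 passed the replicate's own threshold, and their ranks were 7166, 5642 and 4231. This peak was in the conservative list and in the list that compared replicates 2 and 3, and in neither the pooled list nor that of replicates 1 and 2. A site at -3.51 kb (summit 6936353, signal 111) showed the widest spread of all Hox sites. Its signal was 63.2 in replicate 1, where it passed the threshold at rank 1656, 31.5 in replicate 2 and 6.98 in replicate 3 at rank 47574. The replicate 3 record was matched by overlap alone. Its summit had an offset of -267 bp, beyond the 250 bp used to join summits into sites. Replicate 1 alone held it past its own threshold, and the conservative list did not hold it.

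Scr, which patterns the labial and the first thoracic segments and the salivary glands, had a peak outside the gene and a weaker one at its promoter. The intergenic peak (3R, 6818528 to 6818907, summit 6818718, signal 143) lay 4402 bp past the 3′ end of Scr, and the nearest start site, 1176 bp away, was that of a lysine tRNA gene, tRNA:Lys-TTT-2-1. Its signal was 50.1, 38.4 and 50.4 in replicates 1 to 3, at ranks 2398, 2655 and 1535. Replicates 1 and 3 had nearly the same signal, yet the peak passed the threshold in replicate 3, with a global irreproducible discovery rate (IDR) of 0.000876, and missed it in replicate 1, with 0.285. The IDR rates how well the ranks of a peak in a pair of peak sets match, and a low value means a good match. All 4 series-level lists held this site.

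The Scr promoter peak (summit 6848712, 207 bp upstream of the start site at 6848505, signal 68.3) differed more between replicates. Signals were 25.6 in replicate 1, 8.24 in replicate 2 and 34.3 in replicate 3, and the rank in replicate 2 was 46954 of 73730. The site stood in the conservative and the pooled list and in no other thresholded list.

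Dfd, needed for the mandibular and maxillary segments of the head, is the shortest Hox gene at 10.6 kb and the only one on the plus strand (3R, 6791836 to 6802428). Its single site was a promoter peak (3R, 6791256 to 6791635, summit 6791446, 390 bp upstream, signal 85.3). Signals of the overlapping records were 24.7, 40.0 and 32.7 in replicates 1 to 3, at ranks 7681, 2493 and 3277, none past the replicate's threshold. The strongest overlapping record of replicate 2 had its summit at an offset of -202 bp from the pooled summit, and its record within 500 bp of the start site had a signal of 24.2. Of the 201 bp at the summit, 60.7% were marked as repeats or low complexity in the reference, the highest share of the 20 Hox sites, and GC was 23.4%. The Dfd site was in 3 of the 4 series-level lists and missing where replicates 1 and 2 were compared.

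The head genes lab and pb had only weak sites. lab, which acts in the intercalary segment and the midgut, had a pair of peaks past its 3′ end (summits 6657631 and 6657056, signals 62.6 and 73.7). These lay 3796 and 4371 bp beyond lab but 189 and 386 bp from the start site of the neighbouring gene CG1307, so they are promoter peaks of that gene that fall in the lab window. The conservative list held the nearer one alone. At the lab start sites no record passed a threshold, and the strongest had signals of 10.3, 22.2 and 24.4 in replicates 1 to 3. pb, which shapes the adult mouthparts, had 1 intronic site 18044 bp downstream (summit 6724019, signal 76.2), present only in the list that compared replicates 1 and 2. Replicate signals there were 26.7, 29.7 and 22.0, or 26.1 ± 3.87 (SD, n = 3), so replicate 3 was lowest but the spread was narrow.

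In the Bithorax complex, Ubx, which specifies the third thoracic and the first abdominal segments and turns the hind wing into a haltere, held 5 sites in its 77.8 kb (3R, 16656623 to 16734426, minus strand). No thresholded peak was near its start site. The highest signal, 110, was in an intron 29.9 kb downstream (summit 16704484). Signals of 44.6 and 36.1 passed the thresholds of replicates 1 and 2, and the ranked list of replicate 3 held no record overlapping the site. The compared peaks that the conservative list deposits for it have signals of 44.6 and 27.6, so a missing record in a ranked list does not show a missing peak. The site 61.0 kb downstream (summit 16673416, signal 105) was in all 4 series-level lists with no own list behind it, at signals of 43.9, 33.9 and 26.1.

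The other Ubx sites stood in 1 or 2 series-level lists and not in the conservative one. A site 31.9 kb downstream (summit 16702507, signal 76.5) had signals of 40.7, 27.2 and 15.6 in replicates 1 to 3. A site 16.2 kb downstream (summit 16718191, signal 83.2) was in the pooled list only. The fifth (summit 16720483, signal 70.4), also only in the pooled list, lay 238 bp from the start of asRNA:PS4, an antisense RNA gene inside Ubx, and passed the threshold of replicate 2 with a signal of 39.8, against 19.8 and 24.1 in replicates 1 and 3. The start site of Ubx itself was 13943 bp from this summit.

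Abd-B, the gene of the hindmost abdominal segments and the genitalia, held the strongest peak of its complex. The gene is 45.0 kb long (3R, 16927212 to 16972236, minus strand) with 6 separate start sites, and the peak (3R, 16958070 to 16958449, summit 16958260) lay in an intron 2.02 kb downstream of the start site at 16960281. Its signal was 179, rank 1340 in the conservative list. Replicates 1 and 2 had nearly equal signals of 63.4 and 64.6, both past their thresholds, and the ranked list of replicate 3 had no record. The compared peaks deposited with the conservative list had signals of 63.4 and 61.4 there, so the peak was as strong in the other compared set. This site and the Antp site 12.6 kb downstream each appear as a close pair of records in the conservative list, with signals of 179 and 86.2 at Abd-B and of 128 and 6.54 at Antp. Both records of a pair are tied to the same compared peaks, and each pair was counted as 1 site.

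A second Abd-B site (summit 16970034, signal 111, at -1.46 kb from a start site) had signals of 35.6 in replicate 1 and 41.2 in replicate 3, no record in replicate 2, and passed the threshold in replicate 3 alone. The site at -4.56 kb from another start site (summit 16948830, signal 77.7) had signals of 27.6, 24.7 and 20.9 and passed in none. It was in the pooled list and the list comparing replicates 1 and 2.

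abd-A, which patterns the middle abdominal segments, was the only Hox gene with no peak in its window in any thresholded list. Its window was not empty in the ranked lists, which hold candidate peaks before a threshold but can lack some, as at Ubx and Abd-B. There it had 22, 23 and 25 records in replicates 1 to 3, or 71.1 ± 4.65 per 100 kb (SD, n = 3), beside 60.0 ± 6.98 over all Hox windows. The strongest had signals of 31.0, 27.9 and 20.01, at ranks 5073, 4433 and 8519, and the 3 were at different places in the window. At its start sites the strongest records ranked 57506, 16194 and 23680.

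**Figure D2:**
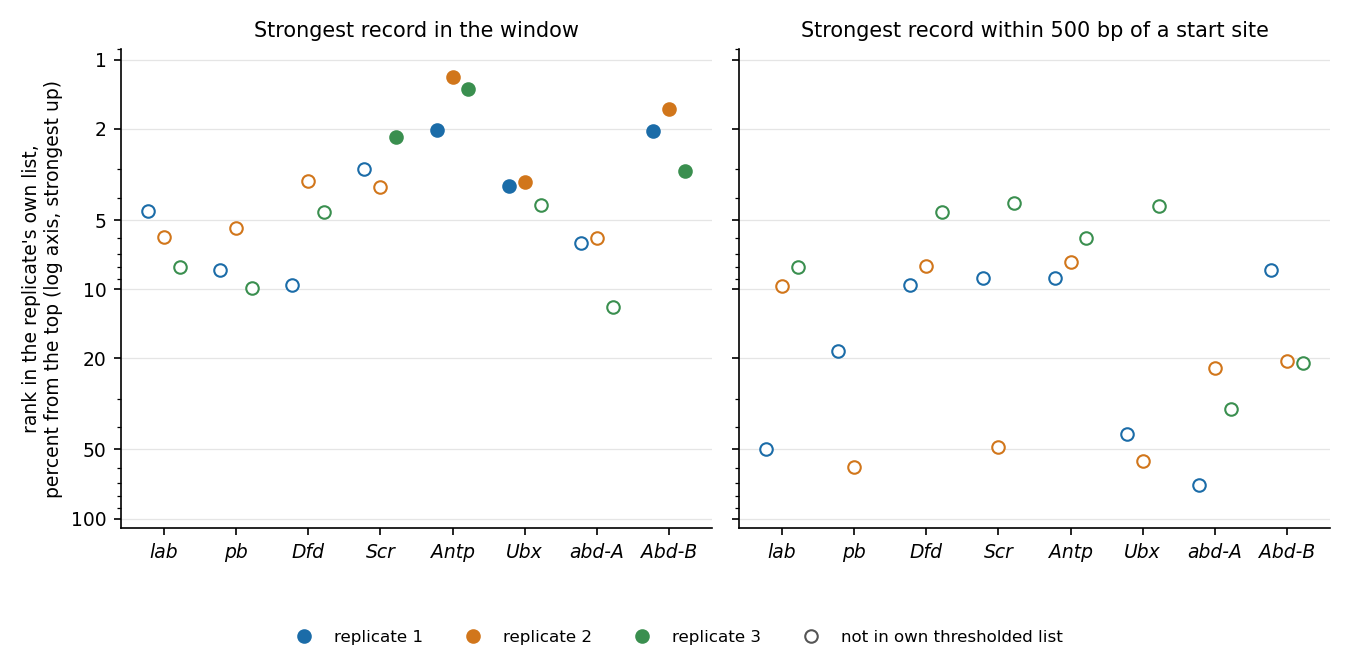
Rank of the strongest record in each Hox gene's window (left) and within 500 bp of its start sites (right), as percent from the top of each replicate's ranked list on a log axis with the strongest at the top; blue, orange and green are replicates 1 to 3 and open points are records outside that replicate's own thresholded list. All 3 Antp and all 3 Abd-B points on the left are filled, and no point on the right is.

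Ordered by the mean of the strongest record in the window over the 3 replicates, Antp came first at 69.2 ± 7.22 and Abd-B next at 56.4 ± 13.2 (SD, n = 3 each). Scr followed at 46.3 ± 6.88, Ubx at 39.4 ± 5.40 and Dfd at 32.5 ± 7.65. The lowest were lab at 30.1 ± 6.86, abd-A at 26.3 ± 5.67 and pb at 26.1 ± 3.87. Every neighbouring pair in this order overlapped in its replicate values, Antp at 64.3 to 77.5 and Abd-B at 41.2 to 64.6 included. The Abd-B value of 41.2, from replicate 3, belongs to another site (summit 16970034), as that ranked list had no record at the main peak. The compared peaks that the conservative list deposits for the main peak have signals of 63.4 and 61.4. The mean and SD of Abd-B thus mix sites. So do those of Ubx, with summits at 16704415, 16720492 and 16703027 in replicates 1 to 3. At lab they were at 6657600 and 6657036, both near the CG1307 start site, and at 6678622 near a start of lab. The abd-A records also lay at different places. Antp did not overlap with Scr, whose values ran from 38.4 to 50.4. The windows differ in length, and a longer one has more candidate records from which the strongest is taken: 75.3 ± 10.6 at Antp against 6.67 ± 1.53 at Dfd.

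At the start sites the order was different. Dfd led at 27.2 ± 4.74, with Antp at 26.3 ± 2.04 and Scr at 23.5 ± 12.1 (SD, n = 3 each). Abd-B had 19.5 ± 6.26, lab 18.95 ± 7.57, Ubx 18.2 ± 13.4 and abd-A 11.7 ± 4.52. The records of Abd-B and of abd-A were not all at the same start site. The high spread at Ubx came from replicate 3, with a signal of 33.6 against 11.6 and 9.34 in the other two. pb had a record there in replicates 1 and 2 only, at 18.1 and 8.78. No strongest promoter record of any Hox gene was in a replicate's own thresholded list. The same share over all protein-coding genes is not given here.

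**Figure D3:**
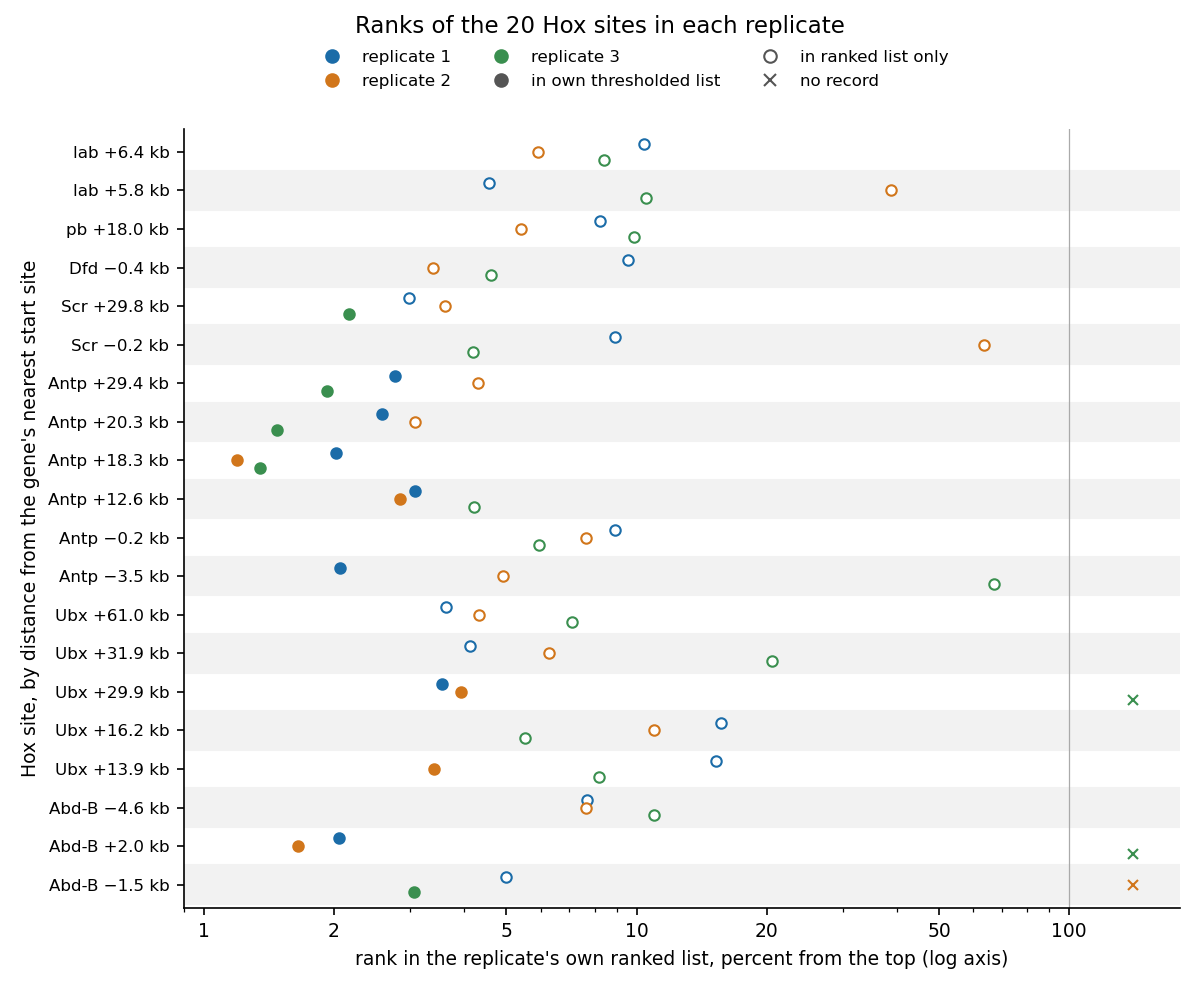
Rank of each of the 20 Hox sites in the ranked list of each replicate, as percent from the top on a log axis; rows are sites named by gene and distance from the nearest start site, filled points are in that replicate's own thresholded list, open points are in its ranked list only, and a cross marks no record. Only the Antp row at +18.3 kb has 3 filled points, and crosses appear in 3 rows.

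Few Hox peaks of the conservative list had a counterpart in every replicate's own thresholded list. Of the 15 records in Hox windows, 1 (6.67%), the Antp record at 18.3 kb, had a counterpart in each of the 3 own lists, against 36.8% of all 4770 records and 35.7% of those on arm 3R. At least 1 own list held 10 of the 15 (66.7%), against 76.4% of all records. Own list 1 held 8 of the Hox records, own list 2 held 6 and own list 3 held 5, which is 53.3%, 40.0% and 33.3%, beside 63.9%, 52.2% and 52.2% of all records. The median signal was 110 for the Hox records and 120 for all, and the Hox median stood at percentile 43.8 of the list. The 15 records are few and include 2 close pairs, and no test was made of these shares. At the strongest Abd-B site and the Ubx site 29.9 kb downstream, the ranked list of replicate 3 had no record. The conservative list still deposits compared peaks of 61.4 and 27.6 there, so absence from an own list does not show a missing peak. How often this holds among all records was not examined.

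Most Hox sites were present as candidates in all replicates. The 20 sites were chosen because a thresholded list held them, so presence and a high rank partly follow from that choice. The same values over all peaks are not given here, so these describe the sites only. Ranked lists held a record at 20, 19 and 18 of the 20 sites in replicates 1 to 3, with a median position in the top 4.35%, 4.32% and 5.74% of the list. Own thresholds were passed by 7, 5 and 5 of them. In replicate 1 the weakest site past the threshold stood at the top 3.55%, and 1 site that ranked higher did not pass. In replicate 2 that was so for 3 sites and in replicate 3 for none.

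Peak density over the Hox windows was set beside that of longer genes, of all genes and of the genome. The conservative list had 3.59 records per 100 kb of Hox window, against 3.42 for windows of genes of 20 kb or longer, 4.06 for windows of all protein-coding genes, 3.24 on arm 3R and 3.56 over the 6 main chromosome arms. Own thresholded lists held 7, 5 and 6 Hox records, or 1.44 ± 0.24 per 100 kb (SD, n = 3). The same value was 2.06 ± 0.30 for windows of genes of 20 kb or longer, 2.54 ± 0.32 for all protein-coding windows, 1.97 ± 0.30 for arm 3R and 2.21 ± 0.29 for the 6 arms. In each replicate the Hox density was below all 4 of these. The unthresholded ranked lists had 60.0 ± 6.98 candidate records per 100 kb of Hox window (SD, n = 3). There the value was 54.4 ± 3.16 for windows of genes of 20 kb or longer and 62.1 ± 4.14 for all protein-coding windows. It was 55.3 ± 2.91 on arm 3R and 56.0 ± 3.63 over the 6 arms, and each lay within the spread of the Hox value. Within replicates 1 to 3 the Hox value was 64.2, 63.9 and 52.0, each above the 57.8, 53.9 and 51.5 for genes of 20 kb or longer. It was above arm 3R and the 6 arms in replicates 1 and 2 but not 3, and above all protein-coding windows in replicate 2 alone.

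**Figure D4:**
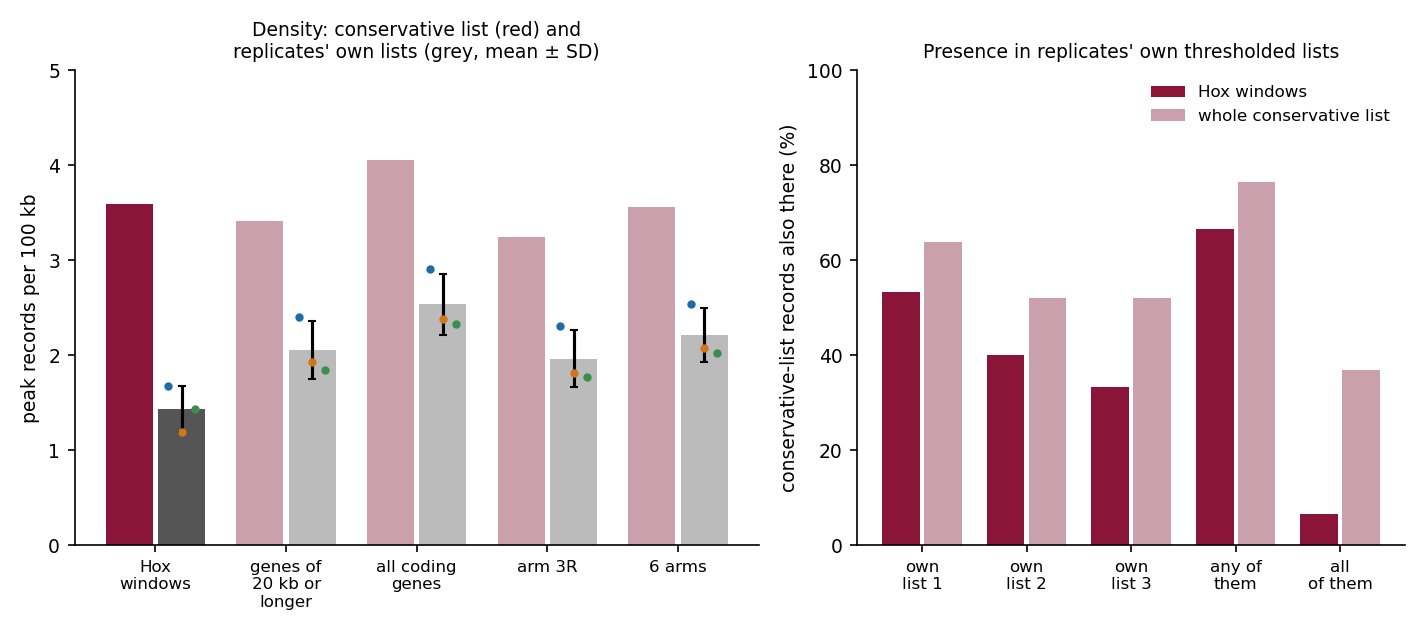
Left, peak records per 100 kb (vertical axis) in Hox windows and in 4 wider sets, for the conservative list (red) and the replicates' own thresholded lists (grey bars, mean ± SD of the 3 points shown, blue, orange and green for replicates 1 to 3); right, percent of conservative-list records found in own lists 1, 2 and 3, in any and in all, for Hox windows and the whole list. The red Hox bar of 3.59 is near the others, while the grey one of 1.44 is the lowest, and the gap on the right is widest for all lists, at 6.67% against 36.8%.

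Most Hox sites lay away from start sites. Of the 13 Hox sites in the conservative list 4 (30.8%) were within 500 bp of a start site of any gene, against 1987 of 4402 merged peaks (45.1%). The merged peaks were not matched for gene length, and 6 of the 8 Hox genes are 20 kb or longer. The part of gene length in this difference was not tested. The 13 lay 200 bp to 61.0 kb from their own gene's nearest start site, with a median of 12.6 kb.

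The sequences printed above show how mixed the sites were. The leading Antp stretch has 1 TAATTA and 1 GAGAG, and the strongest Abd-B stretch has 1 GAGAG and 1 AAATAT. The Abd-B stretch at -4.56 kb has 3 GAGAG and 2 GCCAT, and the Scr promoter stretch likewise has 3 GAGAG and 2 GCCAT. The Ubx stretch 31.9 kb downstream has 2 TAATTA, the only one with more than 1. In the Dfd promoter stretch 3 AAATAT matches and 1 TATAAA crowd together beside a TAATTA. Among the 13 conservative-list sites, 6 (46.2%) held GAGAG, against 23.7% of the 4402 merged peaks, and 8 (61.5%) held TATAAA, against 37.0%. AAATAT was in 8 (61.5%) against 51.8%, GCCAT in 3 (23.1%) against 24.1%, TAATTA in 2 (15.4%) against 18.2% and TAATGA in 2 (15.4%) against 14.3%. TATCGATA was in none of the 13 and in 1.68% of all. By the rough rule of 3 divided by the number of sites, none of 13 still allows a share of up to about 23.1%. That rule takes the sites as a random draw, which they are not. Mean GC was 34.0 ± 8.38% at the 13 and 35.6 ± 8.32% at all (SD over sites). These are counts of letters at few sites and were not tested.

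Genes that work with the Hox genes or on them were described in the conservative list by the same window, where the shares over all protein-coding genes were 45.7% for a summit in the window and 16.2% for a promoter peak. Of the 6 cofactors and partners, 4 (66.7%) had a summit in the window and 2 (33.3%) a promoter peak. hth, which encodes the homeodomain cofactor that brings Exd into the nucleus, had 7 records in its 132 kb, the strongest with a signal of 216 in an intron 10.4 kb from a start site. exd, whose protein binds DNA together with Hox proteins, had none. The other 3 were disco-r and disco, which encode zinc finger proteins that act with head Hox genes, with signals of 146 and 50.9, and tio, the relative of teashirt, with 76.0.

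Of 8 gap and maternal regulators, which set the early Hox domains, 2 (25%) had a summit in the window, beside 45.7% of all protein-coding genes, and none a promoter peak, beside 16.2%. The cad window held a signal of 267, and that of bcd, a gene inside the Antennapedia complex, held a signal of 210 at the promoter of Ama, 3537 bp from its own start site. Among 10 downstream genes, 7 (70%) had a summit in the window and 4 (40%) a promoter peak, beside the same 45.7% and 16.2%, with the highest signals at Dll, a limb gene that abdominal Hox proteins repress, at 361, fkh, a salivary gland gene under Scr, at 230, dpp, a signalling gene that Ubx regulates in the midgut, at 214, and CrebA, a secretory gene, at 162. These 4 were named for their high signals, and the strongest records of the other 3, rho, wg and salm, were below the median of 120, at 106, 105.4 and 63.4.

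Polycomb group genes, which keep Hox genes silent, had a summit in the window at 14 of 21 (66.7%) and a promoter peak at 6 (28.6%), beside 45.7% and 16.2% of all protein-coding genes. The strongest signals in their windows were 1292 at Caf1-55, 1226 at ph-p, 963 at Psc and 852 at phol. Trithorax group genes, which keep Hox genes active, had one at 9 of 13 (69.2%) and a promoter peak at 4 (30.8%), beside the same background, with signals of 1583 at ash1, 1432 at Trl, 929 at osa and 668 at brm. These 8 are the highest of their lists. Of all members with a peak, 8 of the 14 Polycomb and 7 of the 9 trithorax genes had a signal above the 214 of the strongest Hox peak, and 6 and 2 did not. A window can take in a neighbour's promoter: the ash1 summit lay 8145 bp and the Caf1-55 summit 3962 bp from the gene's own start site. Of the 8 named genes, Caf1-55, Psc, phol, ash1 and brm had the summit outside the gene, at brm 143 bp from its start site. At ph-p, Trl and osa it lay inside. The other summits above 214 were likewise mixed, so these signals are those of windows and not all of the genes. Of 74 other homeobox genes 35 had a summit in the window (47.3%) and 10 a promoter peak (13.5%), shares near those of all protein-coding genes. tin, needed for the heart, led with 511, followed by Dll with 361, vvl with 359 and cad with 267. In the replicates' own lists the share with a summit in the window was 37.5% for the Hox genes in each of the 3, and 34.2 ± 2.93% for all protein-coding genes (SD, n = 3).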

How the data were processed

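ChIP-seq peak lists of 3 biological replicates in 1 group were used. Positions refer to dm6, per the labels. The tools for read alignment and peak calling were not given in the sources used here. All deposited lists came from the IDR procedure, and the series-level lists compared pairs of replicates or pooled data. The labels do not say which replicates the conservative list compared. Of the compared records in its ranked counterpart, 74.0% of the first set matched replicate 1 and 67.9% of the second matched replicate 3, with 0% for replicate 2, so it was read as that comparison. The deposited signal is the authors' value, its scale is not stated, and it was used to describe and rank peaks within a list. The deposited score is scaled from the global IDR and was at least 830 in the thresholded lists. The −log10 of the global IDR deposited in the ranked lists was turned back into an IDR. Read totals are not part of the lists, so depth is unknown and no counting interval on signal is given. Replicates are separate samples per the labels, and means and SDs measure the spread between them.

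Gene positions came from Ensembl release 115 (BDGP 6.54), whose arms match dm6. Only the 6 main arms were used, and mobile elements were left out of the start sites. Windows reached 5 kb past each gene, a promoter peak had its summit within 500 bp of a start site, and an overlap was at least 1 bp. Hox summits at most 250 bp from the next were joined into sites. For the merged peaks of the conservative list, records within 250 bp of a stronger one were dropped. The windows and overlaps were computed in Python 3.11.15 with pandas 2.3.3 and numpy 2.4.6, and the window count was tested on simulated data. Members and lists were chosen with earlier results of these data known, so values are described beside all genes, with no test. The genes named are the 8 members, up to 4 of each other list by highest signal in the conservative list, the gene nearest to each Hox summit, and exd and hth always. Of the Polycomb list, calypso had no entry by that name. Other lists, IDR thresholds, windows, promoter distances, overlaps and list lengths were tried. Sequences are printed for 8 of the 20 Hox sites, and the others are not reported here.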

Additional observations from a re-analysis of the deposited data

How the results depend on the processing

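The number of Hox genes with a peak in the window was 6, and it was 5 to 6 without replicate 3 or 1, 6 in the pooled list and 4 to 7 with flanks of 0 to 10 kb. It was 3 in the replicates' own lists, 3 at a global IDR of 0.001 (Scr, Antp and Abd-B), and 0.667 on average among the strongest 1000 records of each replicate. In the own lists that is 37.5%, near the 34.2 ± 2.93% of all protein-coding genes (SD, n = 3). The number of records in Hox windows, 15, was 13 without replicate 3 or 1. It was 6 ± 1 in the own lists, 8 at an IDR of 0.001, 0.667 among the strongest 1000 and 8 among the strongest 3000. Density, 3.59 per 100 kb, was 3.11 without either replicate, 4.55 in the pooled list, 1.44 in own lists, 1.92 at an IDR of 0.001, 3.11 with close records merged, 0.160 among the strongest 1000 and 1.92 among the strongest 3000. The median signal percentile of Hox peaks, 43.8, was 29.3 at an IDR of 0.001 and 31.8 among the strongest 3000. Promoter peaks, at 3 genes, were at 0 to 2 without replicate 3 or 1, at 0 in own lists, at an IDR of 0.001 and among the strongest 1000, and at 0.333 among the strongest 3000. The Hox records found in an own list, 10, were 6.33 per single own list and 0.667 for the strongest 1000. Lists with fewer records give fewer by construction, and the cause of the other changes was not tested. The share of all protein-coding genes with a promoter peak is not given for these alternatives. Nor is the window share, apart from the pooled and own lists. The conservative list already leaves replicate 2 out of its comparison. Leaving out a replicate here changed which peaks passed, and not the summits or signals of the Hox sites. The promoter distance does not enter the count of records found in own lists, so that alternative was not run for it. No paired analysis was possible because there is 1 group.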

Other observations

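Peaks also lay between the Hox genes, outside the 5 kb windows. Within the outermost ends of the Antennapedia complex, 338 kb, the conservative list had 2 such records, a close pair at the promoters of Ama, which encodes a secreted adhesion protein, and lncRNA:CR45593 (summit 6763003, signal 210, rank 1043), present in all 3 own lists. In the pooled list a further peak stood 81 bp from the start of bcd (summit 6759547, signal 72.3), the maternal gene of the front axis. The Bithorax complex, 316 kb, had 8 such records in the conservative list against 5 in its Hox windows. They lay near lncRNA:bxd (signal 80.5), between Ubx and abd-A 6105 bp from the start of Glut3 (signal 93.2), at lncRNA:TS16 (86 bp, signal 91.2), and in the introns of the mir-iab-8 host region (signals 59.0 and 63.1), with close partners at 3 of these. The TS16 peak was 6001 bp from the end of abd-A, just outside its window. The pooled list and the list comparing replicates 2 and 3 held a peak 7951 bp upstream of an abd-A start site (signal 85.1). It was the closest to that gene's starts in any thresholded list. Of 62 annotated genes with a start site inside the complexes, 28 (45.2%) had a summit in their 5 kb window and 3 (4.84%) at a promoter in the conservative list, beside 45.7% and 16.2% of all protein-coding genes. Of the 62, 40 were non-coding RNA and 4 tRNA genes, and neighbours can share a record.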
